A study of Mus musculus with 8 samples.

Results

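The Bcl2 family of apoptosis genes was followed in the cochlea of miR-29a knockout (KO) mice through 9 of its members, which were chosen by name from the 21895 genes measured. They were Mcl1, Bcl2 and Bcl2l1, which protect cells, Bax and Bak1, which kill them, and the BH3-only genes Bcl2l11, Bmf, Hrk and Bbc3. Mcl1 and BH3-only genes are known as miR-29 targets in other settings, Bak1 is the partner of Bax, and Bcl2, Bcl2l1 and Bax were taken for comparison.

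The study asked what the loss of miR-29a does to the inner ear, and RNA-seq was one of its readouts. The cochlea of wild-type and miR-29a-/- mice on the C57BL/6 background gave 4 libraries per genotype, numbered here as WT1 to WT4 for the wild type and KO1 to KO4 for the knockout. Heterozygous parents were bred, so that the deletion was inherited and not limited to a cell type, and RNA came from the organ as a whole. The age was 21 days in the series record and 2 months in the methods of the study, and each source gives a single age for both genotypes. Neither source ties a library to a single animal, so that p-values measure only the spread between these libraries, which may be technical.

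Bcl2-family proteins meet at the outer membrane of the mitochondrion. Bax and Bak1 form pores there that release cytochrome c and start the caspases, Mcl1, Bcl2 and Bcl2l1 (Bcl-xL) hold them back, and BH3-only proteins bind the protectors or act on the pore formers directly. Hair cells, neurons and many blood cells depend on this balance, and Mcl1, a protein with a very short life, is needed by neutrophils in particular. A microRNA lowers its targets by pairing its seed, the bases at positions 2 to 8 counted from its 5′ end, with sites in the 3′-UTR of an mRNA.

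Members of the miR-29 family share 1 seed, so that miR-29b and miR-29c could still pair with the same sites in KO animals. The mature sequences are shown for this reason, from RefSeq on GRCm38.p6, 5′ to 3′, with the seed in capitals. Mature miR-29a lies on the minus strand of chromosome 6 at chr6:31062673-31062694. A copy of miR-29b lies near it on the same strand, at chr6:31063025-31063047, and another copy on chromosome 1. Whether the deletion changes miR-29b was not tested. The table of mRNA levels gave no measure of mature miR-29a, and the knockout itself was therefore not checked here.
miR-29a-3p: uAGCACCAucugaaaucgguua
miR-29b-3p: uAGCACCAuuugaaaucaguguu
miR-29c-3p: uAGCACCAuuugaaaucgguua

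The longest annotated 3′-UTR of each of the 9 genes (GENCODE mouse release M21, GRCm38) was searched on the transcript strand for 3 overlapping motifs. These were TGGTGCT, the reverse complement of the seed, TGGTGCTA, the same with a final A, and GGTGCTA, which pairs with bases 2 to 7 and ends in A. TGGTGCT was found in 6 of the 9 genes, at 9 places, and the 8-base TGGTGCTA in 4 of the 9. Across 21027 genes with an annotated 3′-UTR, 13.1% held TGGTGCT, 2.85% held TGGTGCTA and 6.6% held GGTGCTA. Mcl1 and the BH3-only genes were chosen as known miR-29 targets, so that the comparison with all genes is no test of enrichment. The sites are printed in 28-base windows with the match in capitals, because they are the places at which the members differ in respect of miR-29a. A match is a description of the letters and not a binding site.
Mcl1: ctagagtcttaaccaTGGTGCTAttcac
Bak1: taccccaacattgcaTGGTGCTActgaa
Bcl2l11: gtcatgtccctctctTGGTGCTgcgaca
Bmf site 1: tgtaaggaaagacatTGGTGCTAtaatg
Bmf site 2: tgccagctttggccaaGGTGCTAtgagg
Hrk site 1: cctatatagtgtgtcTGGTGCTtcactt
Hrk site 2: cacttcacagtttctTGGTGCTAagtgt
Hrk site 3: tgtgggggggaggggTGGTGCTcacagg
Bbc3 site 1: ctcaggaaaggctgcTGGTGCTggctgc
Bbc3 site 2: ctggcctcaggccccTGGTGCTtccccc

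The Mcl1 match occupied bases 1036 to 1043 of a 3′-UTR of 2353 bases, at chr3:95661859-95661866 on the plus strand. The Bak1 match was at bases 188 to 195 of 1121 (chr17:27020736-27020743, minus strand), and the Bcl2l11 match, of 7 bases, at bases 84 to 90 of 4218 (chr2:128158413-128158419, plus strand). Bmf held its 8-base match at bases 1195 to 1202 of 3801 (chr2:118531356-118531363, minus strand) and a 7-base match that ends in A at bases 3497 to 3503 (chr2:118529055-118529061). Hrk held the most, with its 8-base match at bases 692 to 699 of 5068 (chr5:118185102-118185109, plus strand) and 7-base matches at bases 669 to 675 (chr5:118185079-118185085) and 867 to 873 (chr5:118185277-118185283). Both Bbc3 matches had 7 bases, at bases 316 to 322 (chr7:16317550-16317556, plus strand) and 401 to 407 (chr7:16317635-16317641) of 971. No match to any of the 3 motifs was present in the 3′-UTRs of Bcl2 (5086 bases), Bcl2l1 (1477 bases) or Bax (224 bases).

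**Figure D1:**
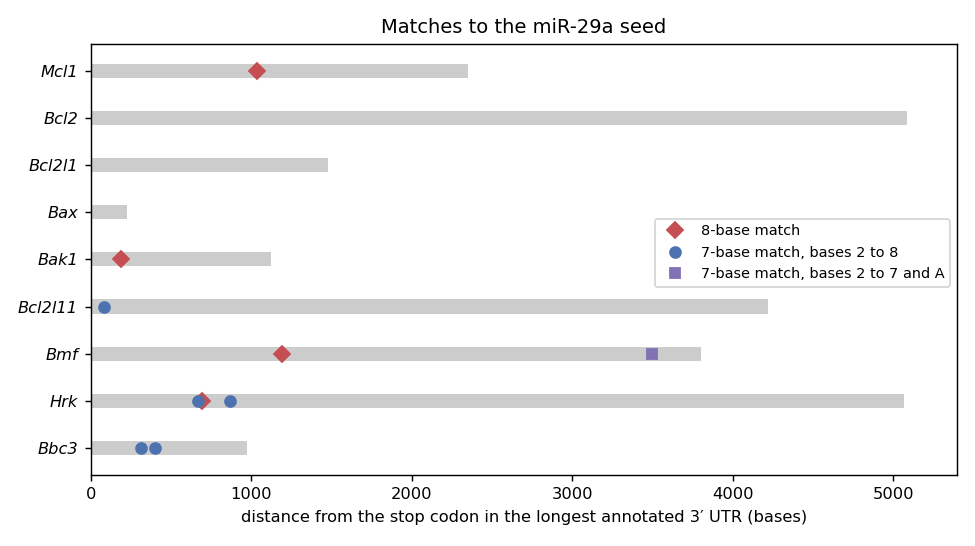
Positions of the seed matches in the 3′-UTRs of the 9 genes. The horizontal axis gives the distance from the stop codon in bases, grey bars give the annotated 3′-UTR, and symbols mark the kind of match, of which Hrk had 3 and Bcl2, Bcl2l1 and Bax had 0.

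The values are FPKM, fragments scaled by transcript length and by the mapped fragments of the library, so that levels of different genes can be set side by side. Library totals ran from 250362 to 252404 FPKM in WT and were 255169, 274417, 288695 and 249221 in KO1 to KO4. The relative depth, estimated from the lowest values of only 12 to 23 genes in all libraries but WT2, ran from 0.952 to 1.17. WT1 stood apart, with a Pearson correlation across genes of 0.725 to 0.821 with the other WT libraries and 17.6% of its total in its 10 highest genes, against 8.50% to 10.9% in the others. Transcripts of hair cells were present throughout, and the summed FPKM of 6 hair cell markers was 32.4 to 43.0 in WT and 25.9 to 40.3 in KO, with all 6 above 0 in every library. Bone marrow transcripts varied far more, and the sum of 7 neutrophil markers was 9387 in WT1, 51.3 to 889 in WT2 to WT4 and 1635 to 4997 in KO. With WT1 left out, every KO library thus lay above every WT library in this sum, and all 7 markers were above 0 in every library and lowest in WT3. Without WT1, the sums were apart in the same direction for erythroid (449 to 3567 against 4862 to 11959), B lineage (0.998 to 14.5 against 22.6 to 66.1) and bone markers (25.4 to 151 against 168 to 325). Markers of the stria vascularis were apart in the other direction, at 146 to 203 in WT2 to WT4 against 92.4 to 126 in KO, and WT1 itself was at 7381, 38.1, 328 and 87.4 in these 4 sums. In RNA from a whole organ, fewer cells of a type and less RNA per cell cannot be told apart.

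Mcl1 was the most abundant of the 9 genes in both groups, with a WT mean of 34.8 ± 1.62 FPKM and a KO mean of 50.2 ± 5.24 (SD, n = 4), and its mean level was above that of 94.1% of the genes tested. Bcl2l1 followed at 23.8 ± 4.24 and 26.8 ± 3.85, and the ranges of these genes did not overlap in either group. Next in order were Bax, Bcl2, Bak1, Bcl2l11 and Bmf, whose neighbours overlapped in WT. The lowest were Bbc3 and Hrk, at 2.26 ± 1.51 and 0.907 ± 0.421 FPKM in WT. The order of the 9 means was the same in KO, where Bcl2 lay above Bak1 in every library without overlap.

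**Figure D2:**
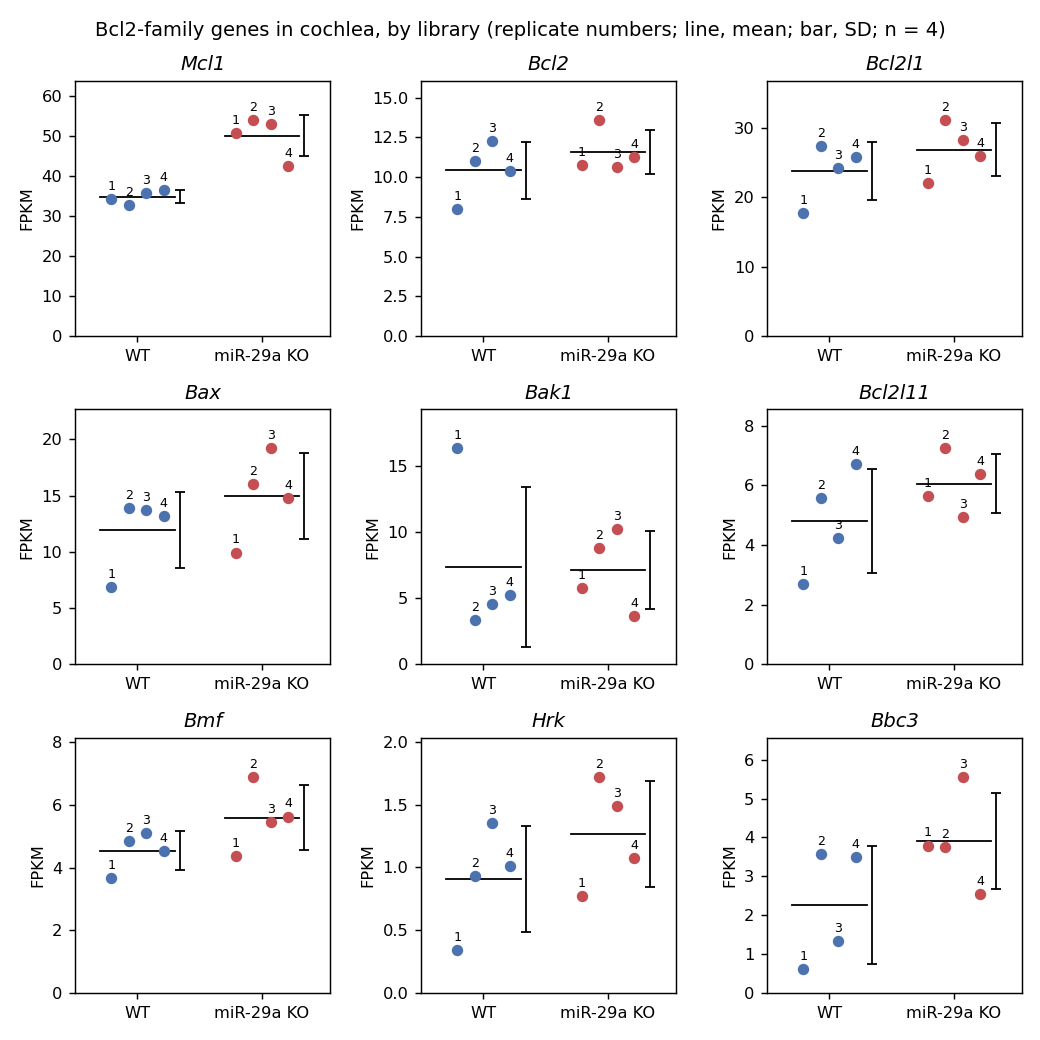
FPKM of the 9 genes in each library, with 1 panel per gene, WT libraries on the left, KO libraries on the right, replicate numbers beside the points, the mean as a line and the SD as a bar (n = 4). The groups are apart for Mcl1, with WT between 32.9 and 36.5 and KO between 42.6 and 54.1, and overlap for the other 8 genes.

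Mcl1 was the only one of the 9 genes that rose in KO at an unadjusted p under 0.05, the threshold of the study, and it did not pass after adjustment over all genes. It lies on the plus strand of chromosome 3, from 95658788 to 95663176 (ENSMUSG00000038612). Its level was 34.2, 32.9, 35.7 and 36.5 FPKM in WT1 to WT4 and 50.9, 54.1, 53.1 and 42.6 in KO1 to KO4. Every KO library lay above every WT library, and KO4 came nearest to WT. The log2 fold change was 0.52 with an SE of 0.12 in limma (95% interval 0.24 to 0.80), which is 1.43-fold. Limma gave an unadjusted p = 0.00265, and the exact two-sided permutation test gave p = 0.0286, the smallest that 4 against 4 libraries allow. It ranked 33 of 14990 genes by the limma p, and its Benjamini-Hochberg adjusted p = 0.922.

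The background of that count is that 767 of 14990 genes, or 5.12%, passed at an unadjusted p under 0.05 in limma, 691 higher and 76 lower in KO, and 0 genes passed at an adjusted p under 0.05. The groups did not overlap for 3.5% of all genes, for 3.02% with KO higher and for 0.487% with KO lower. Without WT1 the count was 2922, without KO2 377 and without KO3 347. After median-ratio scaling between libraries, 402 genes were higher and 363 lower, and after quantile normalization 378 and 547. The median log2 fold change of all genes was 0.10 in the values as deposited, 0.00 after median-ratio scaling and -0.04 after quantile normalization, and Mcl1 lay 0.42 above the median as deposited.

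Mcl1 passed the unadjusted threshold in limma in 18 of 18 alternative fits, with log2 fold changes of 0.41 to 0.62, and its adjusted p was 0.145 or more in each. Without WT1 its log2 fold change was 0.51, and after median-ratio scaling 0.42. Across WT, Mcl1 was 34.2 FPKM in WT1, where the sum of neutrophil markers was highest at 9387, and 35.7 in WT3, where it was lowest at 51.3. Among KO libraries, KO4 had both the lowest Mcl1 (42.6) and the lowest sum (1635). The part of the marrow transcripts in the difference of Mcl1 was not tested.

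**Figure D3:**
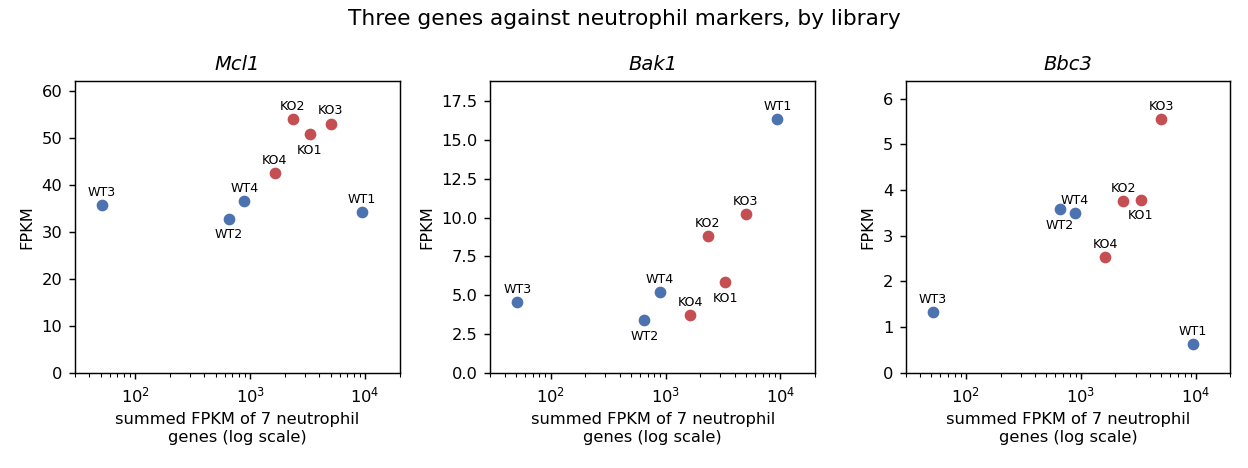
FPKM of Mcl1, Bak1 and Bbc3 (vertical axes) against the summed FPKM of 7 neutrophil markers (horizontal axes, log scale), with 1 point per library, WT in blue and KO in red. WT1, with the highest sum of 9387, has 34.2 FPKM of Mcl1, inside the range of the other WT libraries, and 16.4 of Bak1, the highest of the 8.

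The other protective genes had smaller differences that did not pass. Bcl2, on the minus strand of chromosome 1 from 106538178 to 106714274 (ENSMUSG00000057329), was at 8.01, 11.0, 12.3 and 10.4 FPKM in WT1 to WT4 and at 10.8, 13.6, 10.7 and 11.3 in KO1 to KO4. The groups overlapped, WT1 was the lowest library and only KO2 exceeded every WT library. Bcl2 had a log2 fold change of 0.16 with an SE of 0.17 (95% interval -0.22 to 0.54), an exact permutation p = 0.371 and a limma adjusted p = 0.968. Without WT1 the log2 fold change was 0.04. Exons of Bcl2 overlap those of the antisense gene D630008O14Rik over 558 bases. That gene was not among those measured, and the use of strand in counting is not given in the sources used here.

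Bcl2l1, on the minus strand of chromosome 2 from 152780668 to 152831728 (ENSMUSG00000007659), was at 17.7, 27.4, 24.3 and 25.8 FPKM in WT and at 22.0, 31.1, 28.3 and 25.9 in KO, in the order of replicate numbers. The groups overlapped, and replicate 1 was the lowest of each. Its log2 fold change was 0.18 with an SE of 0.18 (95% interval -0.22 to 0.58, exact permutation p = 0.371), 0.05 without WT1 and 0.0039 without WT1 and WT3. Summed over Mcl1, Bcl2 and Bcl2l1, the WT mean was 69.0 ± 6.08 FPKM and the KO mean 88.6 ± 8.54 (SD, n = 4), and these sums did not overlap. The sum of all 9 genes did not overlap either, at 90.5 to 107 FPKM in WT and 114 to 143 in KO. The sums of the pore formers and of the BH3-only genes overlapped. Mcl1 is part of both sums that did not overlap, and no test was made of them.

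Neither pore former passed the test, and for both WT1 lay far from the other WT libraries. Bax, on the minus strand of chromosome 7 from 45461697 to 45466898 (ENSMUSG00000003873), was at 6.86 FPKM in WT1, 13.9 in WT2, 13.7 in WT3 and 13.2 in WT4, against 9.94, 16, 19.2 and 14.8 in KO1 to KO4. WT1 and KO1 were low, and the other KO libraries all lay above the other WT libraries. Bax had a log2 fold change of 0.34 with an SE of 0.28 (95% interval -0.30 to 0.99, exact permutation p = 0.314), which was 0.10 with an SE of 0.21 without WT1. Of the 50-base words in Bax transcripts, 8.51% were shared with Gm45808, which was at 0 FPKM in all libraries.

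Bak1, on the minus strand of chromosome 17 from 27019810 to 27029009 (ENSMUSG00000057789), was at 16.4, 3.39, 4.57 and 5.23 FPKM in WT1 to WT4 and at 5.82, 8.85, 10.3 and 3.70 in KO1 to KO4. It was the highest of the 8 in WT1, opposite to Bax, and KO1 to KO3 lay above WT2 to WT4. The estimate was 0.14 on the log2 scale with an SE of 0.50 (95% interval -1.01 to 1.29, exact permutation p = 0.83), while the mean FPKM was 7.39 ± 6.03 in WT and 7.15 ± 2.95 in KO. Without WT1 it was 0.61 with an SE of 0.34, without WT2 -0.14 and without KO3 -0.07, so that its direction rested on single libraries. WT1 and then KO3 were highest both in Bak1 and in neutrophil markers, and the part of the latter was not tested. Exons of Bak1 overlap those of the antisense gene Ggnbp1 over 437 bases, Ggnbp1 was at 2.14 to 4.78 FPKM, and the sources used here do not give whether fragments were counted by strand.

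The BH3-only genes were all higher in KO by their means, and none of the 4 passed the test. Bcl2l11 (Bim), which binds all protective members, lies on the plus strand of chromosome 2 from 128126038 to 128162547 (ENSMUSG00000027381). It was at 2.69, 5.56, 4.24 and 6.72 FPKM in WT1 to WT4 and at 5.66, 7.24, 4.93 and 6.37 in KO1 to KO4. The groups overlapped, with WT4 above all KO libraries but KO2. The difference was 0.39 on the log2 scale with an SE of 0.28 (95% interval -0.25 to 1.03, exact permutation p = 0.286). It was 0.14 without WT1 and -0.03 without WT1 and WT3.

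Bmf, which is held at the cytoskeleton until it is released, lies on the minus strand of chromosome 2 from 118528757 to 118549687 (ENSMUSG00000040093). It was at 3.66, 4.85, 5.11 and 4.53 FPKM in WT1 to WT4 and at 4.36, 6.89, 5.47 and 5.63 in KO1 to KO4. KO2, KO3 and KO4 lay above every WT library, and KO1 lay within the WT range. Bmf had a log2 fold change of 0.29 with an SE of 0.19 (95% interval -0.15 to 0.72, exact permutation p = 0.171), and of 0.19 without WT1.

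Hrk, known mainly from neurons, lies on the plus strand of chromosome 5 from 118164648 to 118189478 (ENSMUSG00000046607) and holds 3 of the 9 matches to TGGTGCT. Its level was 0.339, 0.930, 1.35 and 1.01 FPKM in WT1 to WT4 and 0.775, 1.72, 1.49 and 1.08 in KO1 to KO4. The groups overlapped, and replicate 1 was again the lowest of each. Hrk had a log2 fold change of 0.51 with an SE of 0.42 (95% interval -0.46 to 1.47, exact permutation p = 0.343), and of 0.15 without WT1. At these low levels the pseudocount of 0.1 FPKM makes fold changes smaller than in the values themselves.

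Bbc3 (Puma), a direct target of p53, had the largest estimate of the 9 and the widest interval. It lies on the plus strand of chromosome 7 from 16308393 to 16318205 (ENSMUSG00000002083). Its level was 0.626, 3.58, 1.33 and 3.50 FPKM in WT1 to WT4 and 3.79, 3.76, 5.56 and 2.54 in KO1 to KO4. KO1, KO2 and KO3 lay above every WT library, WT1 and WT3 were low, and KO4 lay inside the WT range. Limma put the KO level 2.01-fold above WT, with an SE of 0.53 on the log2 scale (95% interval -0.20 to 2.22, exact permutation p = 0.143). The log2 fold change was 0.54 without WT1 and 0.09 without WT1 and WT3, and it passed the unadjusted threshold without WT2 (1.32) and without WT4 (1.31). Adjusted p-values of the 8 genes other than Mcl1 were 0.947 to 0.987 in limma.

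**Figure D4:**
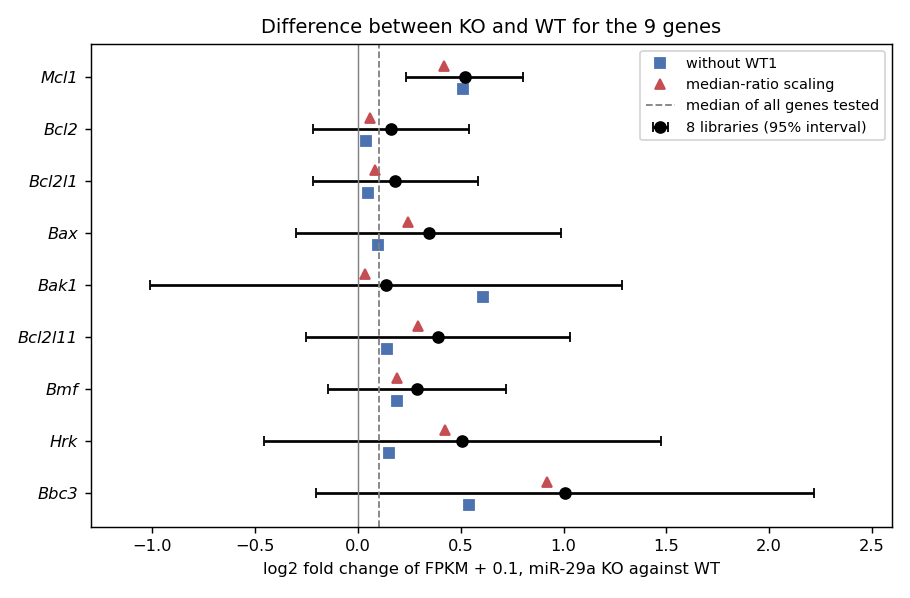
Log2 fold change of FPKM plus 0.1 between KO and WT for the 9 genes (horizontal axis), as the estimate with its 95% interval from 8 libraries in black, without WT1 in blue and after median-ratio scaling in red, with the median of all genes as a dashed line. Of the 9 intervals, only that of Mcl1, from 0.24 to 0.80, lies above 0.

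All 9 log2 fold changes were above 0, as were those of 66.5% of all genes, and their median was 0.34 against 0.10 for all genes. After median-ratio scaling the median of the 9 was 0.24 against 0.00, and without WT1 it was 0.15 against -0.02 for all genes. WT1 was the lowest library for 7 of the 9 genes, the exceptions being Mcl1 and Bak1. The median over the 6 genes with TGGTGCT was 0.45, with 1 of the 6 (Mcl1) passing the unadjusted threshold, and over Bcl2, Bcl2l1 and Bax it was 0.18, with 0 of the 3 passing. Without WT1 these medians were 0.35 and 0.05. Most of the 6 were chosen as known miR-29 targets and the 3 for comparison, so that this split partly restates the choice. Over all tested genes with an annotated 3′-UTR, the median was 0.11 with TGGTGCT and 0.10 without it. Mcl1 and Bak1 both had an 8-base match, and their estimates were 0.52 with an SE of 0.12 and 0.14 with an SE of 0.50. Bbc3, with the largest estimate, had matches of 7 bases. Of 501 tested genes with an 8-base match 11.8% passed at an unadjusted p under 0.05, of 2292 with TGGTGCT 7.02%, and of 14824 with an annotated 3′-UTR 5.05%. Median 3′-UTR lengths in these sets were 2605, 2436 and 1181 bases, and the part of length in these shares was not tested.

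Within a library, the share of Mcl1 in the summed FPKM of the 9 genes does not depend on scaling between libraries. It was 37.8%, 31.7%, 34.8% and 34.2% in WT1 to WT4 and 44.6%, 37.7%, 38.2% and 37.4% in KO1 to KO4, with means of 34.6 ± 2.50% and 39.5 ± 3.43% (SD, n = 4). WT1 lay above KO2 and KO4, so that the groups overlapped, and without WT1 they did not. In WT1, where Bak1 made up 18.1% of the sum against 3.25% to 7.38% in the other libraries, the BH3-only genes made up 8.08% against 11.7% to 14.7%. The protective genes together took 68.4 ± 1.75% in WT and 69.7 ± 2.95% in KO, and these shares overlapped.

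The ratio of Bax to Bcl2, often used as a measure of the tendency to apoptosis, was 0.856 to 1.27 in WT and 0.922 to 1.80 in KO. Mcl1 to Bcl2l1 was 1.20 to 1.93 in WT, with the highest value in WT1, and 1.64 to 2.31 in KO. Bcl2l11 to Mcl1, a binding pair, was 0.0785 to 0.184 in WT and 0.0928 to 0.150 in KO. All 3 ratios overlapped between the groups.

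**Figure D5:**
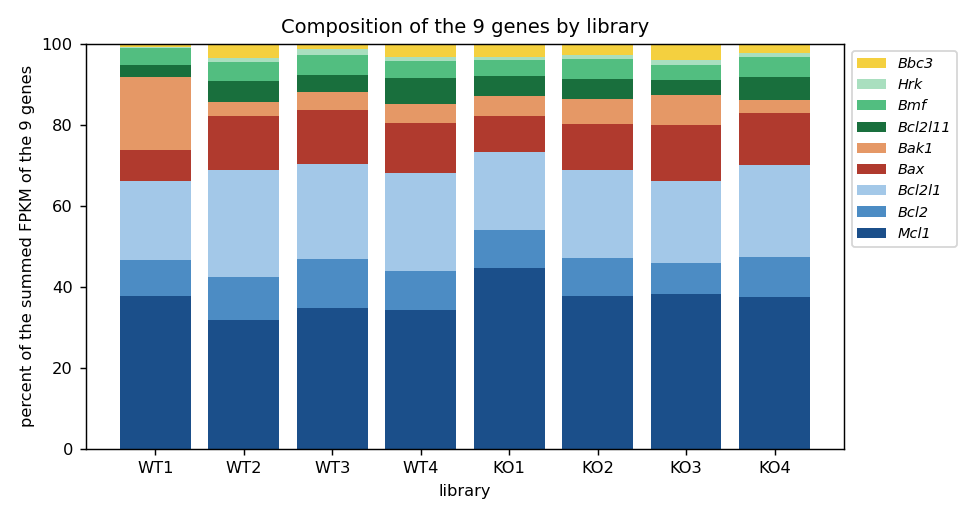
Share of each of the 9 genes in their summed FPKM (vertical axis, percent), with 1 bar per library. Mcl1 (bottom) takes 31.7% to 37.8% in WT and 37.4% to 44.6% in KO, and WT1 differs from the rest by its share of Bak1, 18.1%.

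Of a wider list of 57 apoptosis genes, 54 were tested and 45 of these were not among the 9. Of the 45, 6 rose in KO at an unadjusted p under 0.05 in limma and 0 fell, against 4.61% and 0.507% of all genes, and 0 passed after adjustment. Their median log2 fold change was 0.27 against 0.10 for all genes, and 41 of the 45 were above 0, against 66.5% of all genes. The groups did not overlap in 5 of the 45, against 3.5% of all genes, and among these were Fadd, Cflar, Foxo3 and E2f1. Those that passed included Cflar, Ripk1, Foxo3, Atf4 and E2f1. The count for the whole list, 7 with Mcl1, was 6 after median-ratio scaling, 5 higher and 1 lower in KO, where 5.1% of all genes passed. This count was 15 of 54 without WT1, 14 higher and 1 lower, where 19.5% of all genes passed. It was 4, 3 and 4 without KO1, KO2 and KO3, where 4.05%, 2.52% and 2.32% of all genes passed.

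E2f1, a cell cycle factor that can switch on BH3-only genes, was at 1.39 ± 0.553 FPKM in WT and 2.98 ± 0.734 in KO (SD, n = 4), without overlap, with a log2 fold change of 1.12 and an SE of 0.37 (adjusted p = 0.947 in limma). It passed the unadjusted threshold in 18 of 18 alternative fits, as Mcl1 did. Foxo3, a transcription factor of Bcl2l11 and Bbc3, was at 27.8 ± 2.77 and 36.6 ± 4.70 FPKM with a log2 fold change of 0.39 and an SE of 0.14 (adjusted p = 0.947 in limma), and it passed in 15 of 18. Without WT1 the log2 fold changes were 1.27 for E2f1 and 0.33 for Foxo3. E2f1 was lowest in WT3 (0.575 FPKM), as the neutrophil markers were. In WT1, where the sum of these markers was highest at 9387, E2f1 was at 1.81 FPKM. It was at 2.04 to 3.70 FPKM in KO, where the sums were 1635 to 4997. The part of marrow transcripts in the differences of E2f1 and Foxo3 was not tested.

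Cflar, an inhibitor of caspase-8, differed by 0.28, Ripk1, a kinase of the death receptor branch, by 0.41, and the stress factor Atf4 by 0.46 on the log2 scale. Each passed in 8 of 18 alternative fits, and Cflar and Ripk1 did not pass after median-ratio scaling, where they differed by 0.18 and 0.31. Fadd, an adaptor of the death receptors, was also without overlap between the groups, but its log2 fold change of 0.15 did not pass (adjusted p = 0.969 in limma), and it was as low as -0.06 in the alternative fits. Cflar holds an 8-base match and Foxo3 a 7-base match to the miR-29a seed.

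By role, the most abundant genes besides Mcl1, Bax, Cflar and Atf4 were Bnip3l among the BH3-only genes (43.8 ± 5.45 FPKM in WT, 51.2 ± 7.45 in KO), Xiap among the caspases and their inhibitors (21.3 ± 4.03 and 24.1 ± 3.11) and Huwe1 among enzymes of Mcl1 turnover (70.1 ± 7.78 and 60.1 ± 5.83, SD, n = 4). The groups overlapped for all 3. Huwe1, a ubiquitin ligase that marks Mcl1 protein for degradation, had a log2 fold change of -0.22 that did not pass (adjusted p = 0.947 in limma). It was at 58.6 FPKM in WT1, 72.9 to 75.4 in WT2 to WT4 and 53.3 to 67.3 in KO, so that only WT1 overlapped with KO. Of the transcript words of Bnip3l, 20.8% are shared with a pseudogene, so that its level is uncertain.

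The genes whose log2 levels followed each member most closely over the 8 libraries were searched among the other 14989 genes by Pearson correlation, as a description. For Mcl1 they were Nup50 (r = 0.982), Otub2 (0.978) and Plekhf2 (0.977). For Bcl2 they were Chrnb1, Gpr82 and Ccdc25, for Bcl2l1 Kctd12, Mars2 and Tm9sf1, and for Bax Dpm3, Atp5l and Plrg1. Bak1 was followed by Crispld2, St8sia6 and Il13ra1, Bcl2l11 by Slc4a1ap, Adal and Nedd4l, and Bmf by Zbtb44, Pradc1 and Paics. Hrk was followed by Ngly1, Coa6 and Tkfc, and Bbc3 by Nr1h2, Dnajc17 and Lmnb2. The coefficients of these 27 pairs ran from 0.969 to 0.998, and all points share the same 8 libraries, WT1 among them.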

How the data were processed

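RNA-seq of WT and miR-29a KO cochlea was analysed in 8 libraries, with genotype and replicate number taken from the sample labels. The authors removed ribosomal RNA, made strand-specific libraries, used Hisat2 for mapping and deposited 1 FPKM value for each gene and library. The FPKM tool, the annotation and the use of strand in counting are not given in the sources used here. The labels name the build mm9, but 19771 of 21760 gene identifiers found in GENCODE mouse M21 (GRCm38) had identical loci, among them all 9 members, and GRCm38 is used here. FPKM hold no counts, so no counting error is given. Unused columns of per-sample values numbered 0.

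Genes with a mean of at least 0.5 FPKM (14990) were tested as log2(FPKM + 0.1) with limma 3.58.1 in R 4.3.3, with genotype as the only factor and a mean-variance trend, two-sided. The FPKM were not rescaled. Calls were made at an unadjusted p under 0.05, as in the study, and after Benjamini-Hochberg adjustment over all genes. Single genes were also compared by an exact permutation test (scipy 1.17.1). The script was tested on simulated data.

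Members and lists were chosen with earlier results of these data known. Named were the 9 members, list genes that passed or did not overlap, the most abundant gene per role, and the 3 genes most correlated with each member. Of these, 1 list gene is counted but not reported here. Of the list, Ddit3 stood on 2 rows and was not used, and Bcl2l10 and Bcl2a1d were under the filter. Alternatives were 6 libraries (replicates 1 to 3), a pseudocount of 1, no filter, a minimum of 1 FPKM, median-ratio scaling, quantile normalization, no variance trend, a block for replicate number, and fits without each library. Fits without replicate 1 of both groups and without WT1 and WT3 were added after seeing the data.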

Additional observations from a re-analysis of the deposited data

Results flagged for a closer look

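In WT, WT1 lay far from the other libraries in 2 of the 9 genes. For Bax, WT1 was lowest at 6.86 FPKM against 13.2 to 13.9 in the others, and the gap took up 0.896 of the range of the group. For Bak1, WT1 was highest at 16.4 FPKM against 3.39 to 5.23, and the gap took up 0.858 of the range. Both shares were above the 95% critical value of Dixon's test for 4 libraries. In all, 42 groups of 4 libraries were examined and 2 were unusual, while chance alone gives about 1 in 20.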

How the results depend on the processing

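Of 162 alternative log2 fold changes of the members, 155 kept their direction and side of the unadjusted threshold, 4 newly passed it and 3 changed sign. The fits with no filter, a minimum of 1 FPKM, no variance trend or a replicate block give the same log2 fold change by design. In these fits only the p-value could change, so that 155 of 162 overstates the stability of the direction. Of 54 counts, 38 stayed within 1.5 times the count given and 16 did not. All 72 shares moved by less than 1 SD. This does not measure their stability, as leaving out 1 of 4 libraries cannot move a mean by 1 SD. Leaving out single libraries gave 347 to 2922 genes called, or 2.32% to 19.5% of those tested, in place of 767 (5.12%). It gave 1 to 2 members in place of 1, and 3 to 15 genes of the apoptosis list in place of 7. Bak1 ranged from -0.14 to 0.61 on the log2 scale in these fits, below 0 without WT2 (-0.14) and without KO3 (-0.07), and Bbc3 from 0.54 to 1.32, past the unadjusted threshold without WT2 (1.32) and without WT4 (1.31). With 6 libraries, 2 members passed, as Bbc3 was at 1.49, and 4.51% of all genes passed. Quantile normalization left 4 list genes, or 7.41% of the list, against 6.17% of all genes. Without replicate 1 of both groups, 14 list genes (25.9%) and 2431 of all genes (16.2%) passed. Without WT1 and WT3 these were 12 (22.2%) and 2430 (16.1%), with Bcl2l11 at -0.029, Bcl2l1 at 0.0039 and Bbc3 at 0.09. The cause was not tested.

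WT and KO libraries of the same number deviated from their groups with a positive correlation for replicates 1 and 4 (0.419 and 0.21) and a negative one for 2 and 3 (-0.24 and -0.17), so the numbers were not taken as pairs. In a fit with a replicate block, 838 genes (5.59%) and 2 members passed the unadjusted threshold, Mcl1 (0.52) and Bax (0.34). FPKM without counts give no depth for single values, which limits Hrk and Bbc3 most.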

Other observations

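Genes of the apoptosis list that varied most between WT libraries were picked after their values were seen. Birc5, an inhibitor of apoptosis that dividing cells need for mitosis, was at 15.8, 3.27, 0.0259 and 4.74 FPKM in WT1 to WT4 and at 17.5, 16.7, 16.6 and 6.06 in KO1 to KO4, and its log2 fold change of 2.46 had an SE of 1.29 (adjusted p = 0.947 in limma). Bcl2l2 (Bcl-w), a protective member known from neurons, was at 7.45, 28.9, 19.1 and 27.6 FPKM in WT and at 11.5, 31.7, 33.6 and 30.3 in KO, with replicate 1 the lowest of each group, as for Bcl2l1 and Bax. Bid, a BH3-only gene, was highest in WT1 at 8.25 FPKM, as Bak1 was, against 1.96 to 3.57 in the other WT libraries.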
